A study of Homo sapiens with 17 samples.

Results

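The genes described here lie on the long arm of human chromosome 14 (14q), the arm that also carries HIF1A. They are 57 of the 27315 genes in the deposited expression table, taken by symbol from a given list, and all 57 were among the 12484 genes that passed the filter on low values. The arm was chosen by measured values, since chromosome 14 genes were higher with the guides against HIF2a than in their control and differed between the 2 controls. Values from those 2 comparisons are therefore given as a description. Where genes past limma's threshold are counted in them, the count stands beside that of all tested genes and nothing is read from it. HIF1A itself is not one of the 57 and is shown beside them.

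The study measured polyadenylated RNA in 786-O, a human clear cell renal carcinoma line without functional VHL, after lentiviral delivery of pLenti CRISPR-V2 with a guide RNA and antibiotic selection. In the HIF2a experiment, 3 libraries each carried HIF2a sg4, HIF2a sg6 or the control guide sgscr. The guides sg4 and sg6 target EPAS1, the gene of HIF2a. In the USP37 experiment, 3 libraries each carried sg3 or sg9 against the deubiquitinase gene USP37, and 2, numbered 2 and 3, carried sgscr. All 17 libraries therefore share the 786-O background, its VHL loss and a lentiviral Cas9 vector. Whether the cells of each guide were a pool or a clone is not stated in the labels. The labels call the RNA preparations triplicates and do not say that they came from separate cultures, so the p-values speak of the spread between these preparations.

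Loss of 14q is a recurrent event in clear cell renal carcinoma, and HIF1A, which encodes the other major oxygen-regulated HIF alpha subunit, lies on this arm. 786-O is known for making HIF2a without full-length HIF1a protein. Genes of an arm share its copy number, so the RNA of neighbours that have unrelated functions can shift together when copy number differs between cell populations. DNA was not measured here, and the RNA values do not give copy number.

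The targeted genes were lower with their own guides, and each was also lower, by less, with the guides of the other experiment. EPAS1 was at 11.91 ± 0.13 (SD, n = 3) on the deposited log2 scale in the HIF2a control, 9.54 ± 0.14 with sg4 and 10.34 ± 0.20 with sg6. USP37 was at 9.24 ± 0.13 (SD, n = 2) in its control, 8.33 ± 0.10 with sg3 and 8.13 ± 0.14 with sg9 (n = 3 each). EPAS1 fell by 0.72 with the USP37 guides (limma adjusted p = 6.6e-05), and USP37 fell by 0.44 with the HIF2a guides (limma adjusted p = 0.00903). All 6 markers of renal carcinoma cells passed the filter. KRT8 ranged from 12.7 to 13.6 and KRT18 from 11.2 to 12.1 over the libraries, while MME ranged from 6.44 to 9.26 and CDH6 from 13.03 to 15.15. MME averaged 7.84 in the HIF2a control, 6.79 with sg4 and 6.69 with sg6, and CDH6 averaged 13.29, 14.46 and 14.74. Of the neural markers, NEFL was at 10.5 to 11.9, and NEFM and INA lay below the filter. The leukocyte markers PTPRC, CD3E and LYZ had means over the libraries below the filter of 6.14, although CD68 was measured at 8.85 to 10.5. PTPRC and CD3E still reached 6.68 and 6.78 at their highest. Their group means were highest in the USP37 control, at 5.96 and 6.01, against 5.14 with each of the guides. The part of these markers in the results was not tested. Libraries 2 and 3 of HIF2a sg6 lay a median of 0.199 and 0.197 from the rest of their group over all tested genes, against 0.107 to 0.156 for the other libraries, and these and HIF2a control library 2 were left out together as a check.

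In each library, the median deviation of the 57 genes from their means over the 6 groups gave a small shift on the log2 scale. The HIF2a control libraries had shifts of -0.15, -0.09 and -0.15, and libraries 1 and 3 of them were the lowest of all. With HIF2a sg4 the shifts were -0.00, -0.06 and 0.00, and with sg6 they were -0.00, -0.09 and -0.10. All 3 sg4 libraries lay above the HIF2a control, whereas sg6 libraries 2 and 3 overlapped it. In the USP37 experiment the shifts were 0.14 and 0.10 in the control, 0.12, 0.15 and 0.13 with sg3, and -0.02, 0.03 and 0.05 with sg9. The other 348 tested genes of chromosome 14 shifted by -0.14 to -0.12 in the HIF2a control, -0.04 to -0.00 with sg4, -0.02 to 0.01 with sg6 and 0.06 to 0.07 in the USP37 control. Their HIF2a control libraries therefore did not overlap either HIF2a guide. In bulk RNA, a shift in some of the cells and a smaller shift in every cell cannot be told apart.

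**Figure D1:**
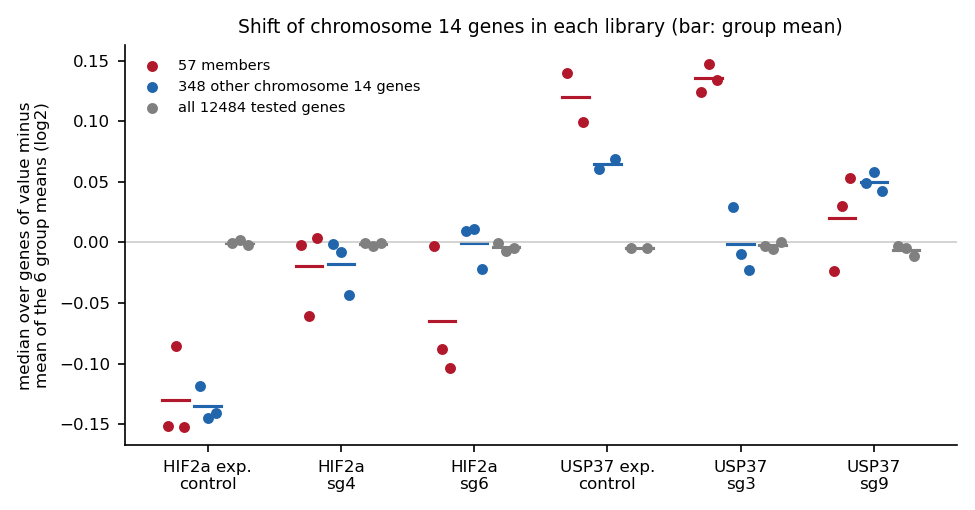
Each point is 1 library and gives the median deviation, on the log2 scale, of the 57 genes (members), the other tested chromosome 14 genes or all tested genes from their mean over the 6 groups. Bars are group means. For the 57 genes the HIF2a control libraries lie at -0.15 to -0.09, overlapped by HIF2a sg6 libraries 2 and 3, and the USP37 control libraries lie at 0.10 to 0.14.

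The 57 genes were on balance slightly higher with the HIF2a guides than in the HIF2a control. The median difference was 0.08 on the log2 scale and 47 of 57 (82.5%) were above 0, while over all tested genes the median was -0.00 and 49.1% were above 0. At an adjusted p under 0.05 in limma, which is called here, 10 were higher and 0 lower, or 17.5% of the list. Over all tested genes 30.6% were called, 16.1% higher and 14.5% lower. At an unadjusted p under 0.05 in limma, 13 of the 57 were higher and 2 lower, against 2537 and 2452 of the 12484 tested genes. The other chromosome 14 genes had a median difference of 0.12, with 84 of 348 called higher and 9 lower. All 6 guide libraries lay above all 3 control libraries for 6 of the 57, namely SNX6, ARF6, DHRS7, PRKCH, SNAPC1 and FUT8, and below them for SOS2. That arrangement held for 13.1% of all tested genes in the higher direction and 12.1% in the lower. Within library numbers 1, 2 and 3, the median difference was 0.13, 0.05 and 0.10, with 45, 31 and 39 of the 57 above 0. Without PRKCH and FUT8 the median of the other 55 was still 0.08, with 45 above 0.

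**Figure D2:**
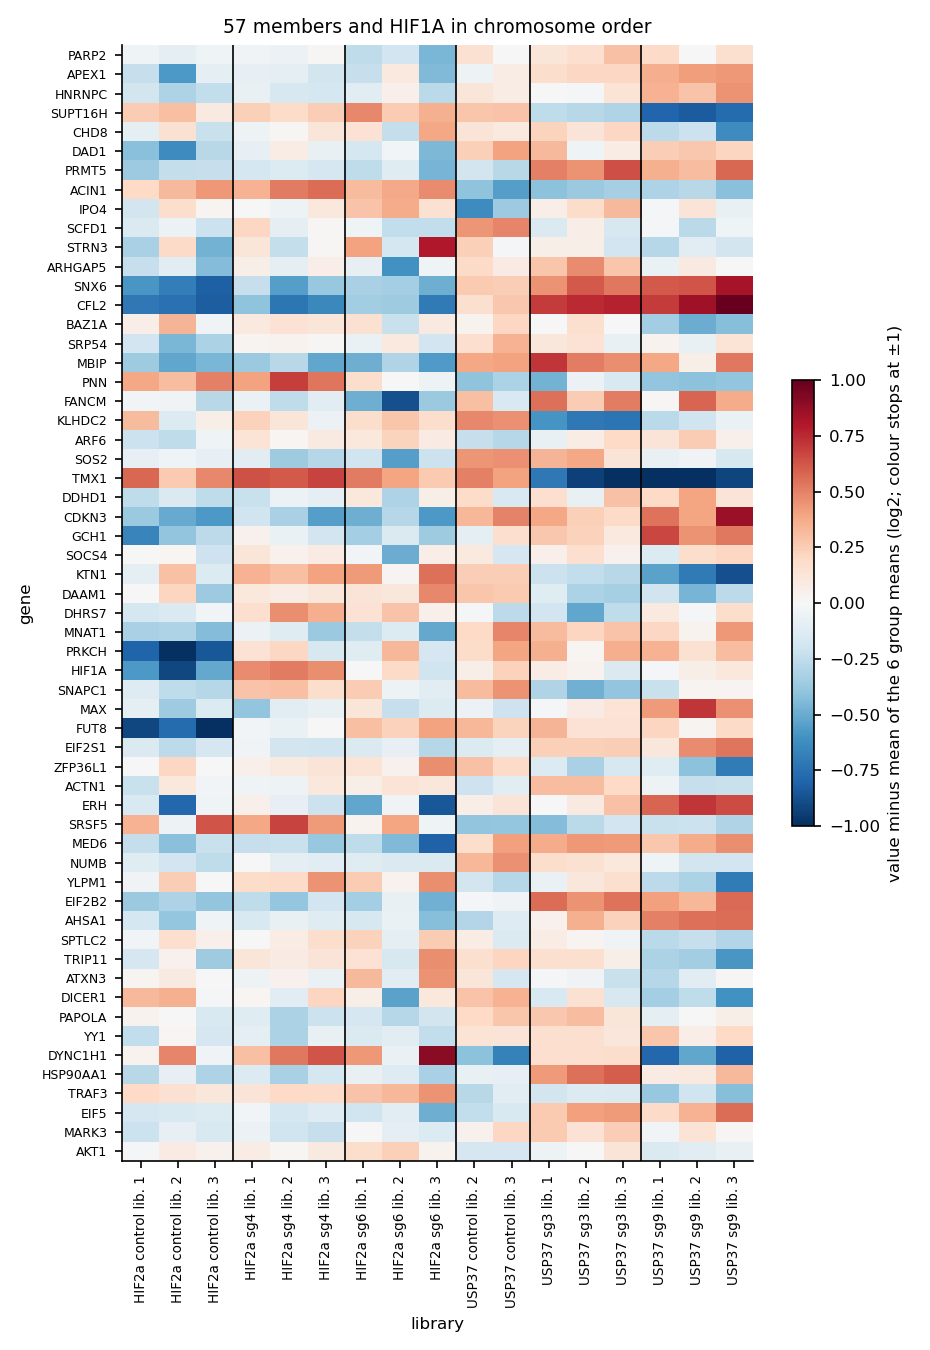
Deviation of each of the 57 genes and HIF1A from its mean over the groups, on the log2 scale, with genes in rows in their order along 14q and libraries in columns. PRKCH, FUT8 and HIF1A are lowest in the 3 HIF2a control libraries, while most other rows change by less.

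Along the chromosome the small difference was spread over nearly all blocks of genes. Whether it was larger around HIF1A depended on how the genes were grouped. In 21 consecutive blocks of up to 20 tested genes, the block median of guides minus control in the HIF2a experiment was above 0 in 20 and ran from -0.00 in the last block to 0.22 in the block from STRN3 to PSMA6. The block holding HIF1A, from ARID4A to WDR89, had a median of 0.12 and ranked 11th. Block edges are arbitrary, and the 20 tested genes nearest to HIF1A had a median of 0.26, above that of any block. Among 23 chromosomes, chromosome 14 had the third highest median, at 0.12, with chromosomes 22 and 16 above it at 0.13 and 0.12. Chromosome 3 was lowest at -0.22. In the USP37 control minus the HIF2a control, chromosome 14 had a median of 0.23 and only chromosome 13 was higher, at 0.24. Block medians in that comparison ran from -0.07 to 0.40 and were highest from NFKBIA to FANCM. Both comparisons subtract the same HIF2a control libraries and are not independent.

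**Figure D3:**
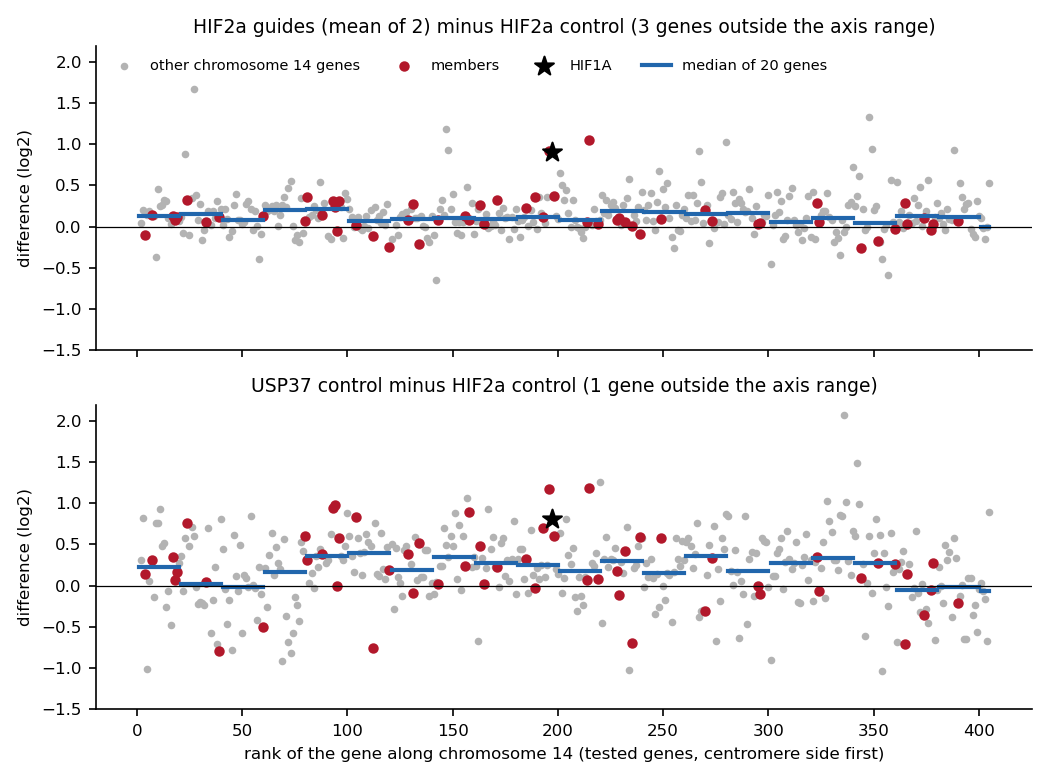
Each point is a tested chromosome 14 gene in gene order, with its difference on the log2 scale for the HIF2a guides minus control (top) and the USP37 control minus the HIF2a control (bottom); blue lines are medians of blocks of 20 genes. Red points are the 57 genes, and HIF1A (star), PRKCH and FUT8 lie well above the blue lines around them.

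HIF1A and 2 of the 57 genes, PRKCH and FUT8, differed far more than the arm. HIF1A was at 10.99, 10.66 and 11.05 in the HIF2a control libraries, 12.03, 12.08 and 12.03 with sg4, and 11.57, 11.76 and 11.37 with sg6. In the USP37 experiment it was at 11.62 and 11.80 in the control, 11.64, 11.60 and 11.42 with sg3, and 11.55, 11.62 and 11.67 with sg9. The HIF2a control libraries were the lowest of all 17 and the sg4 libraries the highest. HIF1A was 0.90 higher with the HIF2a guides than in their control on the log2 scale (SE 0.09), which placed it 11th of the 405 tested chromosome 14 genes. That comparison selected the arm, so no p is given. The choice of the arm did not use the difference between the 2 HIF2a guides, and there HIF1A fell by 0.48 in sg6 relative to sg4 (SE 0.11, limma adjusted p = 0.00632).

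PRKCH and SNAPC1 lie on either side of HIF1A in the gene order, and FUT8 lies farther along the arm. Their promoters are shown because they are the members nearest to HIF1A and the member with the largest difference. Each sequence is the 250 bases before the RefSeq gene start in GRCh38.p14, plus strand, at chr14:61321329-61321578 for PRKCH, chr14:61762170-61762419 for SNAPC1 and chr14:65410342-65410591 for FUT8. Capitals mark GCGTG, or CACGC where it reads on the other strand, a core of the hypoxia response element to which HIF binds.
PRKCH: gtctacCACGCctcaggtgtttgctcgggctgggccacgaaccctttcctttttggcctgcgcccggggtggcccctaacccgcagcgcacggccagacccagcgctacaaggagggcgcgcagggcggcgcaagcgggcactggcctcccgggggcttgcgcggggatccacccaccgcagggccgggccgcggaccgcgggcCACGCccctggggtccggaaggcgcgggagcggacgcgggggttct
SNAPC1: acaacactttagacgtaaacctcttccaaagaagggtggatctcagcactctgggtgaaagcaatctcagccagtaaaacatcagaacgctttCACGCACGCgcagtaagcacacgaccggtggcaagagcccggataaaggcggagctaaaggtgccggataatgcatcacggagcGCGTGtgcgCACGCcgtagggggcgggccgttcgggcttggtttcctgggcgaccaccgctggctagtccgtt
FUT8: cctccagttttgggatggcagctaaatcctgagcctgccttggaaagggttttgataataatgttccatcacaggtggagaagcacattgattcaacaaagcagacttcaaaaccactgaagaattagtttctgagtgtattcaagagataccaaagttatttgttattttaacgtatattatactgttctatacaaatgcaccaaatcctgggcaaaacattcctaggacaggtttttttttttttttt

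The core letters were searched as ACGTG and GCGTG on both strands in these windows. PRKCH held GCGTG at 2 places and SNAPC1 at 4, while neither core was found in the FUT8 window. Of the 52 members with a RefSeq promoter, 34 (65.4%) held ACGTG or GCGTG, against 58.1% of 9615 tested genes and 52.3% of 287 other chromosome 14 genes. ACGTG alone was in 14 and GCGTG in 26. CACGTG, the E-box that MAX dimers bind and that contains ACGTG, was in 4. These are letter matches, and binding was not measured.

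PRKCH encodes protein kinase C eta. It was at 6.75, 6.56 and 6.70 in the HIF2a control libraries, 7.69, 7.75 and 7.39 with sg4, and 7.43, 7.89 and 7.38 with sg6. In the USP37 experiment it was at 7.73 and 7.95 in the control, 7.90, 7.57 and 7.91 with sg3, and 7.89, 7.70 and 7.86 with sg9. The HIF2a control stood below the other 14 libraries, which lay between 7.38 and 7.95. The difference with the HIF2a guides was 0.92 (SE 0.12), 10th of 405 on the chromosome, and 1.17 in the USP37 control minus the HIF2a control. Exons of PRKCH overlap TMEM30B on the opposite strand, and reads from the unstranded kit cannot separate them. The same limit holds for 29 of the 57 in all, among them FUT8 (FUT8-AS1), KLHDC2 (NEMF) and EIF2S1 (ATP6V1D), and for HIF1A (HIF1A-AS1).

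FUT8, the core fucosyltransferase of N-glycans, showed the same arrangement. It was at 9.48, 9.62 and 9.32 in the HIF2a control libraries, 10.36, 10.32 and 10.39 with sg4, and 10.69, 10.62 and 10.79 with sg6. The USP37 control libraries were at 10.72 and 10.61, the sg3 libraries at 10.73, 10.53 and 10.54, and the sg9 libraries at 10.60, 10.42 and 10.58. All 14 libraries outside the HIF2a control were between 10.32 and 10.79. FUT8 was 1.05 higher with the HIF2a guides (SE 0.08), 4th of 405 on the chromosome, and the USP37 control minus the HIF2a control gave 1.19. Without the 3 libraries left out as a check, the difference with the HIF2a guides was 1.12 for FUT8, 0.80 for PRKCH and 0.78 for HIF1A. SNX6, a sorting nexin, was the only other of the 57 with its lowest 3 values in the HIF2a control. Such genes were 5.26% of the list and 2.80% of all tested genes, and 0 of 57 had their highest 3 values there, against 2.29%.

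SNAPC1, a subunit of the complex that starts small nuclear RNA transcription, differed less. It was at 8.77, 8.65 and 8.62 in the HIF2a control libraries, 9.19, 9.21 and 9.08 with sg4, and 9.15, 8.85 and 8.80 with sg6. The guide libraries did not overlap the control libraries, and the difference was 0.37 (SE 0.09), 54th of 405. The 20 tested genes nearest to HIF1A, 10 on each side, had a median difference of 0.26. Of these, 18 were above 0. After PRKCH, SGPP1, at 0.65, and SYNE2, at 0.50, were the largest, and PPM1A, at -0.02, the lowest. The difference between sg6 and sg4 that limma called for HIF1A was called for 0 of these 20 neighbours, against 9.22% of all tested genes. At an unadjusted p under 0.05 in limma, 2 of the 20 were higher and 1 lower, against 1514 and 1509 of 12484 tested genes. With 20 genes these counts do not tell HIF1A apart from its neighbours.

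MNAT1 and MAX, the next of the 57 on either side, differed little between the HIF2a guides and control. MNAT1, the assembly factor of the CDK-activating kinase, was at 8.19, 8.21 and 8.08 in the HIF2a control and 8.00 to 8.46 over the 6 guide libraries, which overlap. MAX, the dimer partner of MYC, was at 8.51, 8.25 and 8.47 in that control and 8.21 to 8.73 with the guides. They ranked 207th and 266th of 405 genes. The largest difference of the chromosome was SLC7A7, at 1.67, and EGLN3, a HIF target that encodes a prolyl hydroxylase, was the lowest shown here at -3.72.

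**Figure D4:**
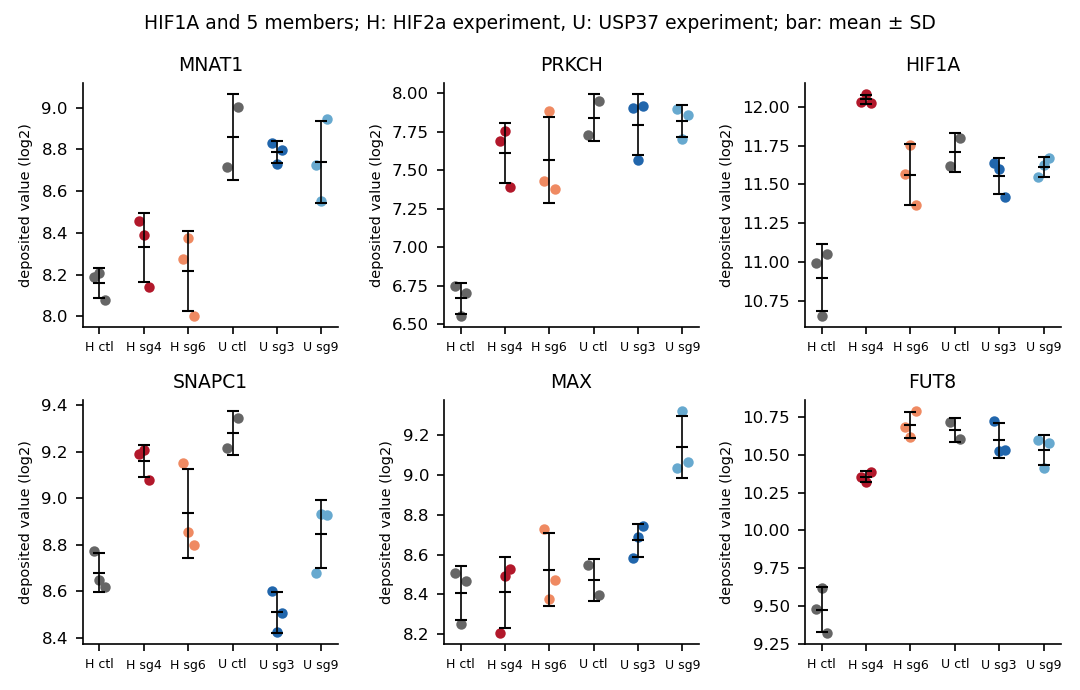
Deposited log2 value of HIF1A, the 4 of the 57 genes that flank it and FUT8 in each library, by guide, with the group mean and SD (H, HIF2a experiment; U, USP37 experiment; ctl, control). Each panel has its own axis, which does not start at 0. The HIF2a control is lowest for PRKCH, FUT8 and HIF1A, and MAX is highest with USP37 sg9.

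By function, the protein folding, secretion and import genes and the cytoskeleton and trafficking genes had the highest medians with the HIF2a guides. The 10 folding and secretion genes had a median of 0.21 and all 10 were above 0. The 5 largest were FUT8, DAD1 (0.32), a subunit of oligosaccharyltransferase, SRP54 (0.31), the signal recognition particle GTPase, KTN1 (0.32), kinectin, and TRIP11 (0.29), the golgin GMAP-210. HSP90AA1, the inducible cytosolic HSP90, was lowest of them at 0.03. The 8 cytoskeleton and trafficking genes had a median of 0.26, from 0.10 for ACTN1, alpha-actinin 1, to 0.35 for the striatin STRN3. SNX6 was at 0.31 and ARF6, a small GTPase of membrane traffic, at 0.28.

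STRN3 varied widely between libraries of the same guide. It was at 8.96, 9.48 and 8.82 in the HIF2a control, 9.41, 9.05 and 9.30 with sg4, and 9.69, 9.12 and 10.09 with sg6, so guide and control libraries overlapped. The 7 ubiquitin, metabolism and cell cycle genes were all above 0 with a median of 0.08, from 0.04 for SPTLC2, of serine palmitoyltransferase, to 0.36 for the reductase DHRS7. Of 7 signalling genes, with a median of 0.07, PRKCH was highest and SOS2, a Ras exchange factor, was lowest at -0.22. Its libraries were at 8.81, 8.85 and 8.81 in the control and 8.34 to 8.79 with the guides.

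The transcription and chromatin genes, 11 in all, had a median of 0.06, from -0.10 for the Mediator subunit MED6 to 0.37 for SNAPC1. The 8 RNA processing and decay genes had a median of 0.03, from -0.26 for DICER1, the RNase of microRNA maturation, to 0.12 for HNRNPC, an RNA-binding protein of pre-mRNA particles. The 3 translation initiation genes ran from -0.04 for EIF5 to 0.07 for EIF2B2. The 3 DNA repair genes ran from -0.25 for FANCM, a Fanconi anaemia translocase, to 0.14 for the abasic endonuclease APEX1.

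Against the control, the 2 HIF2a guides taken alone gave 9 higher and 0 lower with sg4, and 6 higher and 2 lower with sg6. Over all tested genes, 13.2% were called higher and 12.1% lower for sg4, and 15.2% and 13.8% for sg6. The lowest differences from the control with sg6 were those of FANCM (-0.47) and PNN (-0.36), a splicing-associated protein. Compared directly, sg6 and sg4 differed for 2 of the 57 (3.51%), against 9.22% of all tested genes, 4.86% higher and 4.36% lower. The count was 7 without sg6 library 2, and 1 without sg6 library 1 or 3 or any 1 of the sg4 libraries. The libraries of the 2 guides did not overlap for 5 of the 57 in each direction, against 15.2% above and 13.4% below over all tested genes. PNN was at 11.12, 11.40 and 11.25 with sg4, 10.89, 10.71 and 10.66 with sg6, and 11.10, 11.02 and 11.22 in the control. It fell by 0.50 in sg6 relative to sg4 (SE 0.10, limma adjusted p = 0.00354), and the sg6 libraries lay below both other groups. FUT8 was 0.34 higher with sg6 than with sg4 (SE 0.09, limma adjusted p = 0.023). The PNN call was lost without the 3 libraries left out as a check (adjusted p = 0.146), and the FUT8 call was lost under 7 alternatives (adjusted p = 0.0562 to 0.154).

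The 2 control groups carry a guide of the same name, sgscr, in their labels but differed for many genes. The 57 genes had a median of 0.23 in the USP37 control minus the HIF2a control, with 41 of 57 above 0. In limma 22 were called higher and 6 lower (38.6% and 10.5%), against 40.5% of all tested genes, 20.1% higher and 20.4% lower. The control libraries did not overlap for 29 above and 8 below, against 32.0% and 30.6%. After FUT8 and PRKCH, the largest were CFL2, a cofilin, at 0.98, SNX6 at 0.95, CDKN3, a phosphatase of cyclin-dependent kinases, at 0.90, and MBIP, of the ATAC acetyltransferase complex, at 0.84. The lowest were ACIN1 (-0.80), PNN (-0.76) and SRSF5 (-0.70), which act in splicing, and DYNC1H1 (-0.71), the dynein heavy chain.

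Part of that difference ran through the whole of each experiment. All 8 USP37 libraries lay above all 9 HIF2a libraries for 8 of the 57, namely SNX6, CFL2, MBIP, CDKN3, MNAT1, MED6, EIF2B2 and YY1, against 8.31% of all tested genes. CFL2, for example, was at 9.37 to 9.85 in the HIF2a experiment and 10.35 to 11.26 in the USP37 experiment. The reverse held for ACIN1, PNN, SRSF5 and TRAF3, which is 7.02%, against 9.04%. PRKCH, FUT8 and HIF1A were not among these, since the HIF2a guide libraries overlapped the USP37 libraries. Experiment and control group cannot be told apart in a comparison of the controls alone.

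With the USP37 guides, calls among the 57 genes were near the share of all tested genes and fell in both directions. Against the USP37 control, limma called 26 of 57, 13 higher and 13 lower (22.8% each), and the median was 0.04. Over all tested genes 44.3% were called, 22.4% higher and 21.9% lower. These control libraries also entered the control difference that led to the choice of the arm. HIF1A differed by -0.13 (limma adjusted p = 0.356), PRKCH by -0.03 and FUT8 by -0.10, and none of the 3 passed the test. TMX1, a thioredoxin-like protein of the endoplasmic reticulum, was at 10.85 and 10.74 in the control, 9.63, 9.41 and 9.28 with sg3, and 9.19, 9.34 and 9.43 with sg9. The guide libraries lay over 1 log2 unit below the control, and TMX1 fell by 1.42 (SE 0.10, limma adjusted p = 2.7e-09). In the HIF2a experiment TMX1 ranged from 10.60 to 11.02, near the USP37 control.

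SUPT16H, the large subunit of the histone chaperone FACT, was at 11.56 and 11.57 in the control, 11.04, 11.01 and 10.98 with sg3, and 10.49, 10.46 and 10.52 with sg9. SUPT16H fell by 0.82 (SE 0.08, limma adjusted p = 1.2e-07), with sg9 below sg3. KLHDC2, a substrate receptor of a cullin-RING ubiquitin ligase, was at 9.08 and 9.05 in the control, 8.01, 7.88 and 7.87 with sg3, and 8.32, 8.40 and 8.53 with sg9. KLHDC2 fell by 0.90 (SE 0.11, limma adjusted p = 3.14e-06), here with sg3 below sg9. PRMT5, the main symmetric arginine dimethyltransferase, was at 10.15 and 10.06 in the control, 10.84, 10.79 and 10.98 with sg3, and 10.69, 10.64 and 10.91 with sg9. It rose by 0.70 (SE 0.10, limma adjusted p = 8.63e-06), and the guide libraries did not overlap the control.

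KTN1 was at 12.75 and 12.76 in the USP37 control, 12.30, 12.26 and 12.23 with sg3, and 11.97, 11.80 and 11.63 with sg9. KTN1 fell by 0.72 (SE 0.12, limma adjusted p = 8.55e-05), and all 6 guide libraries lay below the control. The importin IPO4 was at 9.62 and 9.89 in the control, 10.32, 10.43 and 10.57 with sg3, and 10.23, 10.38 and 10.18 with sg9. IPO4 rose by 0.60 (SE 0.11, limma adjusted p = 0.000128), but its control libraries were also lower than the 10.07 to 10.62 of the HIF2a experiment. SNAPC1, next to HIF1A, was at 9.21 and 9.35 in the control, 8.60, 8.42 and 8.51 with sg3, and 8.68, 8.93 and 8.93 with sg9. It fell by 0.60 (limma adjusted p = 0.00015). However, its USP37 control mean of 9.28 was above the 8.68 of the HIF2a control, and the choice of the arm used that comparison. PRKCH, on the other side of HIF1A, overlapped between guides and control.

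The 3 translation initiation genes all rose with the USP37 guides: EIF2S1, the alpha subunit of eIF2, by 0.42, EIF2B2, of its exchange factor, by 0.50, and EIF5, its GTPase-activating protein, by 0.56. Their limma adjusted p-values were 0.00162, 0.000569 and 0.000151. Among the folding and import genes, IPO4, AHSA1 (0.59), which activates the HSP90 ATPase, and HSP90AA1 (0.43) rose, while TMX1, SCFD1, TRIP11 and KTN1 fell. HSP90AA1 has near-identical copies in the genome and its value is uncertain. Of the 8 cytoskeleton and trafficking genes, limma called 3 higher, CFL2 (0.59), ARF6 (0.36) and SNX6 (0.36), and 1 lower, the formin DAAM1 (-0.55). In the remaining roles, DICER1 (-0.55) and ZFP36L1 (-0.55), which promotes decay of AU-rich mRNAs, were among those that fell. MAX (0.43) was among those that rose. Taken alone, sg3 gave 12 higher and 9 lower, against 16.8% and 18.4% of all tested genes. For sg9 these were 14 and 15, against 24.6% and 23.2%. Both guides called the same direction for 9 genes higher and 9 lower, against 11.4% and 13.4% of all tested genes.

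The 2 USP37 guides also differed from each other. In limma 23 were called between sg9 and sg3, 9 higher and 14 lower with sg9, against 30.8% of all tested genes, 16.6% higher and 14.2% lower. The libraries did not overlap for 11 above and 18 below, against 22.5% and 20.2%. The count of calls was 14 without sg3 library 2 and 15 without sg9 library 3. DYNC1H1 was at 12.96, 12.95 and 12.96 with sg3, 11.98 to 12.26 with sg9, and 12.38 and 12.11 in the control. It fell by 0.88 in sg9 relative to sg3 (SE 0.17, limma adjusted p = 0.000817), and the sg3 libraries stood above both other groups. SUPT16H (-0.52), BAZ1A (-0.48), a subunit of ISWI remodellers, ACTN1 (-0.44) and TRIP11 (-0.54) were also lower with sg9, at limma adjusted p of 0.00011, 0.00258, 0.00109 and 0.0032. KLHDC2 (0.50) and MAX (0.47) were higher, at 0.00277 and 0.00627. MAX was at 9.03, 9.32 and 9.06 with sg9, above the 8.58, 8.69 and 8.74 of sg3 and the 8.55 and 8.40 of the control.

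**Figure D5:**
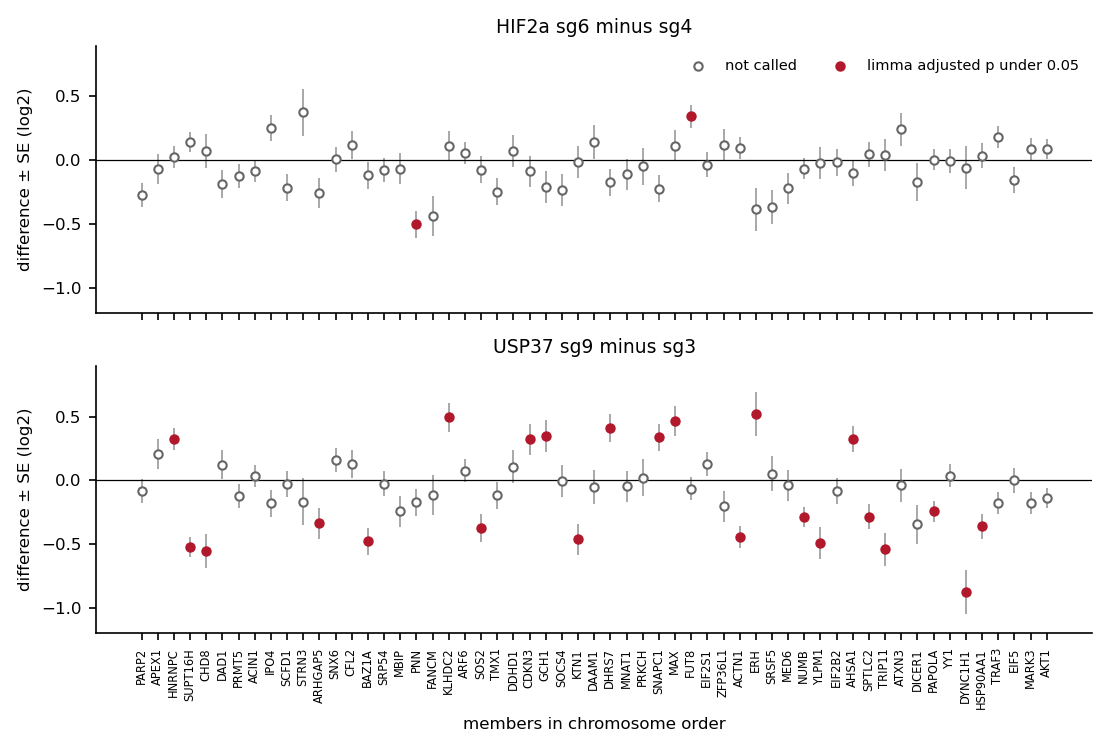
Difference between the 2 guides of a target, on the log2 scale with its SE, for each of the 57 genes in chromosome order; filled points have a limma adjusted p under 0.05. PNN and FUT8 are filled for HIF2a sg6 minus sg4, and 23 genes are filled for USP37 sg9 minus sg3, with DYNC1H1 lowest.

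Lists from 2 other arms were set beside the 57 genes, and these lists too were chosen with earlier results of these data known. For 59 genes of 13q, the median was -0.23 with the HIF2a guides, and 0.29 in the USP37 control minus the HIF2a control. For 51 genes of 3p, the arm that carries VHL, it was -0.17 and -0.21. The 14q genes, chosen on these comparisons, were at 0.08 and 0.23. The difference between lists was not tested.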

How the data were processed

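Values for 17 libraries came from 1 deposited table of log2-scale expression, which the authors made with a variance-stabilizing transformation. Its low end is compressed, so differences understate changes of low genes. Reads had been handled with STAR 2.5.2b, Salmon, cutadapt and DESeq2 on hg19, per the submitters' processing notes. Sequencing depth is not given in the sources used here. Means per replicate number were equal within 6.4e-14, so a replicate term had been removed before deposit and p-values tend to be too small. Number 1 has no USP37 control library, so that step can also have altered differences between groups. The 12484 genes with a mean of at least 6.14, which is the 1st percentile over genes plus 1 unit, were fitted with limma 3.58.1 (R 4.3.3, trend, 6 groups, 11 residual degrees of freedom). P-values were Benjamini-Hochberg adjusted within a comparison at 0.05. The fit was tested on simulated data. Genes were placed in order by RefSeq GRCh38.p14: 24898 by symbol, 1298 by synonym, 1119 unmatched. Promoters used the bases before the start only. The 57 genes and all lists were chosen with earlier results of these data known. Named genes were those flanking HIF1A, the highest and lowest of each role group with the HIF2a guides, and, in the other comparisons, called genes with the smallest adjusted p. Others were named after their values were seen.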

Additional observations from a re-analysis of the deposited data

How the results depend on the processing

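Alternatives were a replicate block, each experiment fitted alone, other filters, no trend, array weights, other centring, and leaving out each library. For sg6 minus sg4, 1 of the 57 was called with array weights and 1 to 7 with 1 library left out, 7 of them without sg6 library 2. The median then ran from -0.0601 to -0.0091, and it was 0.0116 without the 3 libraries named above. Between sg9 and sg3, leaving out 1 library gave 14 to 24 calls and medians of -0.10 to -0.04. The median with the HIF2a guides was 0.12 without the 3 libraries. Between the controls it was 0.15 to 0.24 with 1 library left out, lowest without HIF2a control library 3. The cause was not tested for any of these. Correlations of deviations between same-numbered libraries ran from -0.547 to 0.222 over 16 pairs. Means per replicate number were already equal in the deposited values. Neither these correlations nor the replicate block can therefore show whether such libraries pair. With the replicate block, 2, 18, 23, 9 and 27 of the 57 were called for sg6 minus sg4, sg9 minus sg3, USP37, HIF2a and the controls, each within 1.5 times the count without it. The control difference could not be fitted within 1 experiment. The 6 genes named by smallest p for sg9 minus sg3 and the 6 for the USP37 guides, of which SUPT16H and KLHDC2 are in both, passed the test under each alternative run. Depth is unknown, so no detection limit can be given.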
